A study of Mus musculus with 12 samples.

Results

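The question addressed here is whether the liver's transcript response to a high-fat diet differed with the dose of Sirt1. It was measured as the interaction of genotype and diet, the Het minus WT difference under high-fat feeding minus that under low-fat feeding, in log2 units. All 12 of the 12 arrays in the series enter it, so no sample is left out. The mice were male C57BL/6 with either both copies of Sirt1 (SIRT1+/+, WT) or 1 copy (SIRT1+/-, Het), kept for 34 weeks on low-fat or on high-fat food. Each of the 4 groups held 3 biological replicates, 1 liver and 1 array per mouse, and the labels give neither the construction of the mutant allele nor the age at which feeding began. A positive interaction means that the Het minus WT difference was larger, or less negative, on the high-fat diet, and a negative one that it was smaller.

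Sirt1 encodes a deacetylase that uses NAD as a cosubstrate and acts on histones and on transcription factors that govern fat, sugar and inflammation genes in liver. Long feeding with a high-fat diet leads to fat storage in hepatocytes and to inflammation, and in male mice it also alters genes that depend on the pulses of growth hormone. Growth hormone acts in hepatocytes through the kinase JAK2 and the transcription factor STAT5B, which switches on its own inhibitors, among them Cish, and the genes typical of male liver.

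All 11 tested hepatocyte markers were well above background on every array. Between 58.0% and 71.6% of spots per array were well above background. The largest component of variation within groups held 33.2% of that variance and ran with the brightness of the array, its 75th percentile. Over the 12 arrays, as deviations from group means, Pearson r was 0.926 and Spearman rho 0.909 (exact permutation within groups, two-sided p = 0.0054 and 0.00386), and r was 0.878 without the 2 arrays farthest from the median. Its part in the interactions was not tested beyond a fit with brightness as a covariate, in which 1274 genes in place of 828 had an unadjusted p under 0.05 and 0 passed. The arrays lay on 4 slides: slide 1 held WT high-fat mice 1 and 2, slide 2 WT high-fat mouse 3 with all Het high-fat mice, slide 3 all WT low-fat mice with Het low-fat mouse 1, and slide 4 Het low-fat mice 2 and 3. Genotypes can therefore be compared within a slide only on slides 2 and 3, where 1 side of each comparison is a single mouse. The scan days split exactly as the diets do, so diet and scan day cannot be told apart.

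Sirt1 was lower in Het than in WT by a similar amount on both diets, which checks the labels. Sirt1 levels, as log2 of the processed signal relative to the 75th percentile of the array, were 0.23, -0.05 and -0.09 in WT and -0.37, -0.62 and -0.23 in Het on the low-fat diet. They were -0.37, -0.26 and -0.17 in WT and -0.72, -0.67 and -0.73 in Het on the high-fat diet. Every Het mouse lay below every WT mouse of its diet, with a mean difference of -0.43 on the low-fat and -0.44 on the high-fat diet. The interaction was -0.01 ± 0.19 (SE, limma, unadjusted p = 0.965, n = 3 per group), and another Sirt1 probe gave -0.09 ± 0.19 (unadjusted p = 0.636).

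No gene was shown to respond to diet differently in Het and WT livers. Among genes with a current symbol the candidates of lowest p were Cish, a STAT5-induced inhibitor of growth hormone signalling, with an interaction of -1.87, and Myl7, a myosin light chain, with -2.23. The transcript AK162987, which has no current symbol, had the lowest p of all, 0.98 ± 0.17 (unadjusted p = 0.000137, adjusted p = 0.944, limma). Among gene groups, T and NK cell genes (median 0.68) and cell cycle genes (0.41) lay highest and immediate early (-0.30) and ER stress genes (-0.26) lowest, for lists of at least 10 tested genes. No gene reached an adjusted p under 0.05 for the interaction (limma, Benjamini-Hochberg, 0 of 17043 genes, 0%), and the lowest adjusted p was 0.944. At an unadjusted p under 0.05 stood 828 genes, or 4.86%, where 5% would be reached if nothing differed. Of these, 541 (3.17% of all genes) had a positive and 287 (1.68%) a negative interaction, a split of 65.3% positive that was not stable to scaling. It was 49.3% after normexp background correction, 49.1% after quantile normalization and 35.8% when arrays were scaled to their median, which shifted the interaction of all genes by -0.12. The median interaction over all genes was 0.03. In 754 of the 828 genes Het lay above WT on one diet and below WT on the other, a pattern that choosing genes by a low interaction p itself favours.

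The precision sets the size of interaction that could be seen. The median standard error of the interaction was 0.267, so that a typical 95% interval reached 0.589 log2 units to either side. The interval lay within 4-fold in both directions for 16026 genes (94.0%) and within 2-fold for 11430 (67.1%). Data were simulated with the spread of each gene as limma moderated it, that is, drawn toward a common value. In them 0.667% of 1.5-fold, 22.7% of 2-fold and 88.7% of 4-fold interactions were called. Each simulated set held 200 changed genes, which eases the adjusted threshold, and noise that was independent between genes. The shares therefore do not give the chance of a call in the real data, where fewer genes may differ and arrays share a component of variation. An interaction of at least 2-fold was fitted for 516 genes, of which 232 had an unadjusted p under 0.05.

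The diet differences of WT and Het ran in parallel over most genes. Of 17043 genes, 5140 (30.2%) differed with diet over both genotypes at an adjusted p under 0.05 in limma, 2287 higher and 2853 lower on the high-fat diet. Among these diet genes 321 (6.25%) had an unadjusted interaction p under 0.05, and among the other 11903 genes 507 (4.26%) did. The diet difference in Het followed that in WT with Pearson r = 0.909 across the 5140 genes and 0.736 across all genes, and genes are not independent of one another. The 5140 were chosen by the mean of the 2 differences, which itself raises their r. The WT and Het differences come from different mice but share slides and scan days. The major axis had a slope of 1.16, Het on WT, and the diet difference was larger in Het for 3430 of the 5140 genes (66.7%). That slope moved between 1.05 without Het high-fat mouse 1 and 1.26 without Het high-fat mouse 2, and the share between 56.4% and 70.6%. No test of the slope was made.

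**Figure D1:**
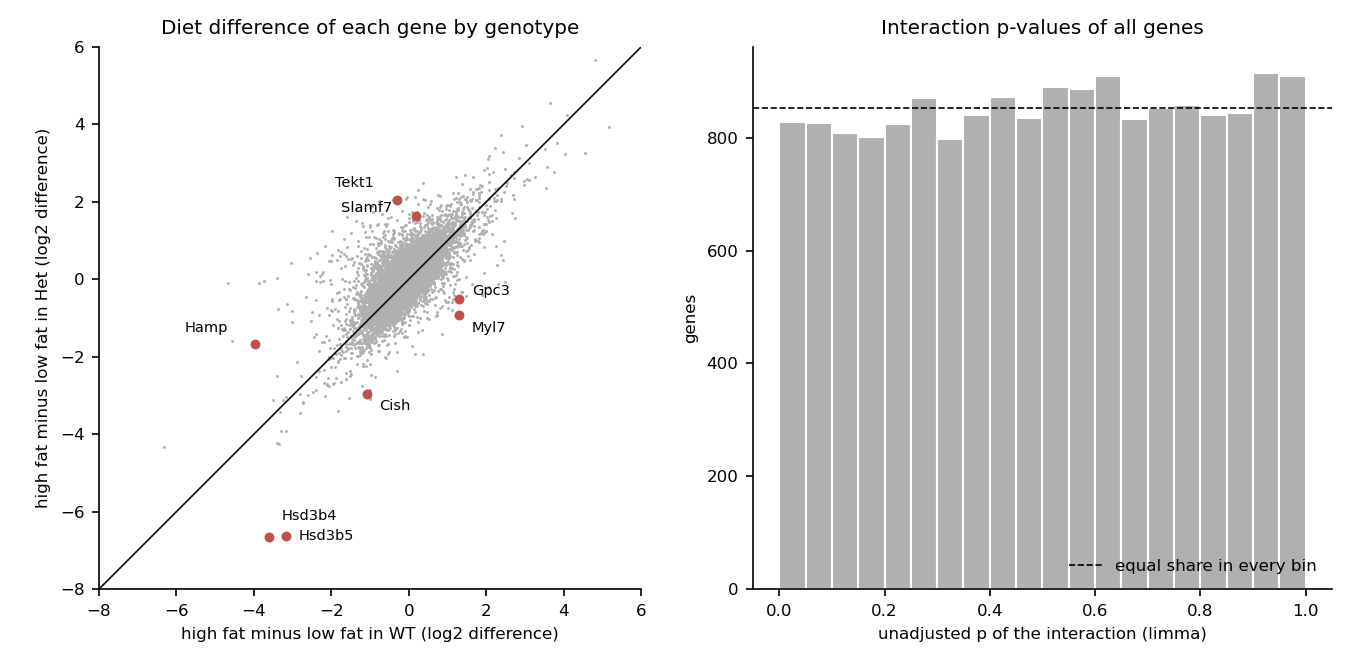
Left, the high-fat minus low-fat difference of each of 17043 genes in Het (vertical axis, log2) against that in WT (horizontal axis, log2), with the diagonal of equal differences and 8 genes marked in red. Right, the number of genes in each of 20 equal bins of the unadjusted interaction p, with a dashed line at an equal share. The points follow the diagonal and the leftmost bin, with 828 genes, lies slightly below the dashed line.

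The genotypes separated fully on the high-fat diet (no overlap of 3 WT and 3 Het mice) for 2547 genes, or 14.9%, and under low-fat feeding for 742 genes, or 4.35%. A crossed pattern, with full separation on both diets and in opposite directions, was met by 94 genes (0.552%), of which 86 had an unadjusted interaction p under 0.05. Unadjusted p-values under 0.05 for genotype (limma) numbered 1475 (8.65%) under high-fat and 341 (2%) under low-fat feeding, where 5% would be reached if nothing differed. With 3 mice per group, full separation and crossing also arise when nothing differs, at shares not computed here, so neither is a test. Slide 1 held only WT high-fat mice and slide 4 only Het low-fat mice. The part of slide in these counts was not tested.

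Because no gene passed, the 12 genes of lowest p in each direction are described as candidates that did not pass. All have an adjusted p of 0.944 and an unadjusted p of 0.00216 or less, and they were chosen by those values, so neither their p nor their crossing is a test of them as a set. Of the 24, 12 showed the crossed pattern, 7 with a negative and 5 with a positive interaction. In the fit with slide as a fixed block all 24 kept their sign and 21 had an unadjusted p under 0.05.

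Cish and Myl7 shared the lowest p among the genes described. Cish encodes an SH2-domain protein that STAT5 induces and that dampens signalling by growth hormone and cytokine receptors. Its level was 2.13, 2.29 and 2.42 in WT and 2.33, 3.0 and 3.30 in Het on the low-fat diet. With high-fat feeding it was 1.54, 1.04 and 1.04 in WT and -0.03, -0.32 and 0.12 in Het. The Het mice thus lay at or above WT on the low-fat diet, with an overlap of 1 Het mouse, and below every WT mouse on the high-fat diet. The high-fat minus low-fat difference was -1.08 in WT and -2.95 in Het. The interaction was -1.87 ± 0.34, a ratio of 3.66-fold between the diet responses (unadjusted p = 0.000183, adjusted p = 0.944, limma). It lay between -2.14 and -1.66 when any 1 array was left out and at -1.17 ± 0.37 with slide as a fixed block.

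The promoter of Cish is shown because the letters that STAT5 is known to bind, TTCNNNGAA, occur there in a pair. The sequence is from RefSeq (GRCm38.p6, chr9:107296409-107296708, plus strand, 300 bases that end 50 after the gene's start, read 5′ to 3′), with matches to TTCNNNGAA in capitals.
Cish promoter: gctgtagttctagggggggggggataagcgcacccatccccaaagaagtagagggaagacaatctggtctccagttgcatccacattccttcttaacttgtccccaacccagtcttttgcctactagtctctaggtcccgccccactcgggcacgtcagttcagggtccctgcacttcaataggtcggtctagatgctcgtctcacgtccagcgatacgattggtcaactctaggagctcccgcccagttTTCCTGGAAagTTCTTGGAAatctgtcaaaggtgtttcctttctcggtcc
The matches span bases 1 to 9 and 12 to 20 after the start. TTCNNNGAA reads alike on both strands. It occurred at least once in 2582 of 27025 promoters of this length (9.55%) and at least 2 times in 146 (0.54%). Among the growth hormone and STAT5 list, 12 genes had a RefSeq promoter and 5 of these held a match (Bcl6, Cish, Igfals, Prlr and Socs3). A match describes the letters only and shows no binding.

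Of the growth hormone and STAT5 list, 14 of 15 genes were tested, and 2 had an unadjusted interaction p under 0.05, both negative: Cish and Stat5b. Over all genes 4.86% reached that level, 1.68% with a negative interaction. Stat5b, the transcription factor itself, stood at 4.08, 4.17 and 3.91 in WT and 4.31, 4.13 and 4.14 in Het on the low-fat diet. On the high-fat diet it stood at 3.87, 4.11 and 4.29 in WT and 3.55, 3.76 and 3.74 in Het. The Het high-fat mice were the lowest of all 12, with an interaction of -0.55 ± 0.19 (unadjusted p = 0.0157, adjusted p = 0.989, limma). The other Stat5b probes gave 0.01 ± 0.33 (unadjusted p = 0.983) and -0.63 ± 0.42 (unadjusted p = 0.164), so the probes disagree. The related Stat5a gave -0.53 ± 0.27 (unadjusted p = 0.0756) and Onecut1, a liver transcription factor that growth hormone regulates, 0.52 ± 0.40 (unadjusted p = 0.223). The list's median was -0.01, next to 0.03 for all genes, and 6 of its 14 members lay above 0, against 54.4% of all genes.

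Among 23 tested male-biased liver genes, 2 had an unadjusted interaction p under 0.05, Hsd3b5 and C8a, both negative, where 4.86% of all genes did and 1.68% with a negative interaction. Their median was 0.01. Hsd3b5, a male-specific steroid dehydrogenase, stood at 4.35, 5.39 and 3.99 in WT and 4.31, 3.45 and 4.60 in Het on the low-fat diet. On the high-fat diet it stood at 1.87, 0.19 and 2.16 in WT and at -4.18, -2.80 and -0.53 in Het. The genotypes overlapped on the low-fat diet and were apart on the high-fat diet, where the Het mice spread over more than 3 log2 units. Its interaction was -3.45 ± 1.16 (unadjusted p = 0.013, adjusted p = 0.976), and that of Hsd3b4, a relative that only the Hsd3b list holds, was -3.05 ± 0.93 (unadjusted p = 0.00777). These family members are near-identical in sequence, so their probes may report partly the same transcripts. Of the 7 Hsd3b genes tested these were the only 2 at an unadjusted p under 0.05. The median of the 7 was -0.24, or 0.05 without Het high-fat mouse 3. Only 1 of the 7 lay above 0: Hsd3b2, also on the male-biased list, at 2.99 on the probe used, with an unadjusted p above 0.05. The other Hsd3b2 probes gave -0.10 ± 0.42 and -0.20 ± 0.33, so the probes of that gene disagree.

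C8a, a complement subunit, had an interaction of -0.64 ± 0.25 (unadjusted p = 0.0254). Slco1a1, a male-biased uptake transporter of organic anions, stood at 1.51, 1.27 and 1.45 in WT and at -1.78, -0.51 and 1.20 in Het on the high-fat diet. Its interaction was -1.57 ± 0.78 (unadjusted p = 0.0689), and -0.86 without Het high-fat mouse 1. Elovl3, a fatty acid elongase of male liver, gave -0.92 ± 0.49 (unadjusted p = 0.0893). In Slco1a1 as in Hsd3b5 the spread among the Het high-fat mice was wider than in any other group. None of the 21 tested female-biased genes had an unadjusted p under 0.05, and their median was 0.07.

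**Figure D2:**
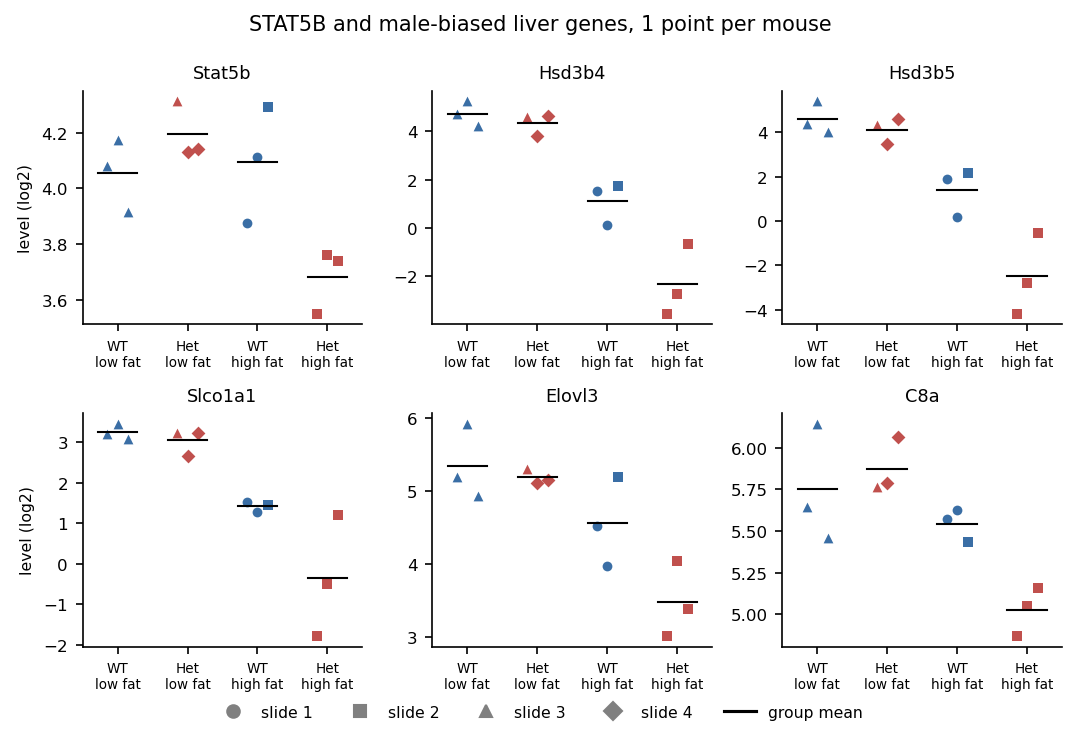
Levels of Stat5b, Hsd3b4 and 4 male-biased liver genes (vertical axis, log2 relative to the 75th percentile of the array) in the 4 groups, 1 point per mouse, blue for WT and red for Het, with marker shapes for the 4 slides and a bar at the group mean. The Het high-fat mice are lowest for Stat5b and C8a, and spread widely for Hsd3b4, Hsd3b5 and Slco1a1.

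Among the other genes of negative interaction, several were crossed, with Het above WT on the low-fat diet and below WT on the high-fat diet. Myl7, the regulatory myosin light chain of heart atrium, stood at -3.03, -2.91 and -2.08 in WT and -0.99, -1.53 and -1.76 in Het on the low-fat diet. High-fat levels were -1.41, -1.70 and -0.97 in WT and -2.49, -2.15 and -2.41 in Het. The genotypes did not overlap on either diet, and the interaction was -2.23 ± 0.40 (unadjusted p = 0.000183), or 4.69-fold. Gpc3, a heparan sulfate proteoglycan of the cell surface, stood at -4.03, -3.47 and -3.18 in WT and -2.30, -2.74 and -2.83 in Het on the low-fat diet. Its high-fat levels were -2.47, -2.13 and -2.17 in WT and -3.47, -3.21 and -2.74 in Het. Again no mice overlapped within a diet, with an interaction of -1.82 ± 0.35 (unadjusted p = 0.000327).

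Igfbp5, a secreted binding protein of insulin-like growth factors, had an interaction of -1.66 ± 0.41 (unadjusted p = 0.00208). Its high-fat levels were apart, at -0.52, 0.03 and -0.47 in WT and -1.46, -1.04 and -1.57 in Het, while its low-fat levels overlapped. Prss12, a secreted serine protease, gave -1.66 ± 0.37 and was crossed. Heyl, a transcriptional repressor downstream of Notch, gave -0.93 ± 0.18, and Plxna2, a semaphorin receptor, gave -0.84 ± 0.17. Both were crossed on the probe used, but the other probes of these genes gave smaller values with unadjusted p above 0.05: -0.30 for Heyl, and -0.40 and -0.22 for Plxna2. In Myl7, Gpc3, Prss12 and Igfbp5 the highest Het low-fat mouse was the same one, mouse 1 on slide 3.

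The remaining negative candidates were smaller or rested on 1 probe of several. Acpp, an acid phosphatase, gave -1.25 ± 0.26 on the probe used and -0.45 ± 0.36 on another. Taf7, a subunit of the general transcription factor TFIID, gave -0.86 ± 0.20, with -0.38 and 0.19 on its other probes. Sco1, a copper chaperone for cytochrome c oxidase, gave -0.73 ± 0.18 and -0.13 ± 0.20 on another probe. Crb3, a protein of epithelial polarity, gave -0.83 ± 0.21. Prph, a neuronal intermediate filament protein, differed mainly on the low-fat diet, where Het lay 1.17 above WT, with an interaction of -1.41 ± 0.35.

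Among genes of positive interaction were 2 receptors of lymphocytes. Slamf7, found on natural killer and plasma cells, stood at -4.97, -5.95 and -5.71 in WT and -5.98, -5.63 and -5.93 in Het on the low-fat diet. High-fat levels were -5.38, -5.23 and -5.42 in WT and -4.06, -4.21 and -4.34 in Het, which lay above all other mice. Its interaction was 1.45 ± 0.31 (unadjusted p = 0.000704), with 1.24 ± 0.51 on its other probe, and it was well above background in 0 of 3 Het low-fat mice. Against that floor the Het high-fat level was at least 2.10-fold higher than the Het low-fat level, with the bound set by the dimmest signal well above background. Lag3, an inhibitory receptor of activated T cells, was crossed, with low-fat levels of -3.98, -3.79 and -3.72 in WT and -4.0, -4.41 and -4.13 in Het. Its high-fat levels were -4.17, -4.28 and -4.34 in WT and -3.83, -3.86 and -3.35 in Het, giving 0.93 ± 0.23 (unadjusted p = 0.00203).

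Sik2, a kinase of the salt-inducible family, gave 1.38 ± 0.32, and only the Het high-fat group had it well above background in 3 of 3 mice. Pkp3, a plaque protein of desmosomes, stood at -1.0, -1.27 and -1.34 in the Het high-fat mice and between -2.39 and -1.89 in the other mice, with an interaction of 0.82 ± 0.20.

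Akap6, an anchor for protein kinase A, gave 1.01 ± 0.19 and was crossed. Aoc2, an amine oxidase, gave 1.27 ± 0.26, Ccdc96 gave 1.01 ± 0.23 and Fcrls, a protein of the Fc receptor family, gave 1.19 ± 0.28. Each of these 4 was well above background in 0 of 3 Het low-fat mice, where a level is only an upper bound. Helq, a DNA helicase, gave 0.91 ± 0.21, with 0.54 and 0.04 on its other probes. Tekt1, a structural protein of cilia, and 1700072F12Rik were well above background in the Het high-fat mice alone. Their Het high-fat levels were at least 1.26-fold and at least 1.42-fold those of WT on the same diet, so the fitted interactions of 2.35 ± 0.54 and 2.39 ± 0.56 rest on signals near background.

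**Figure D3:**
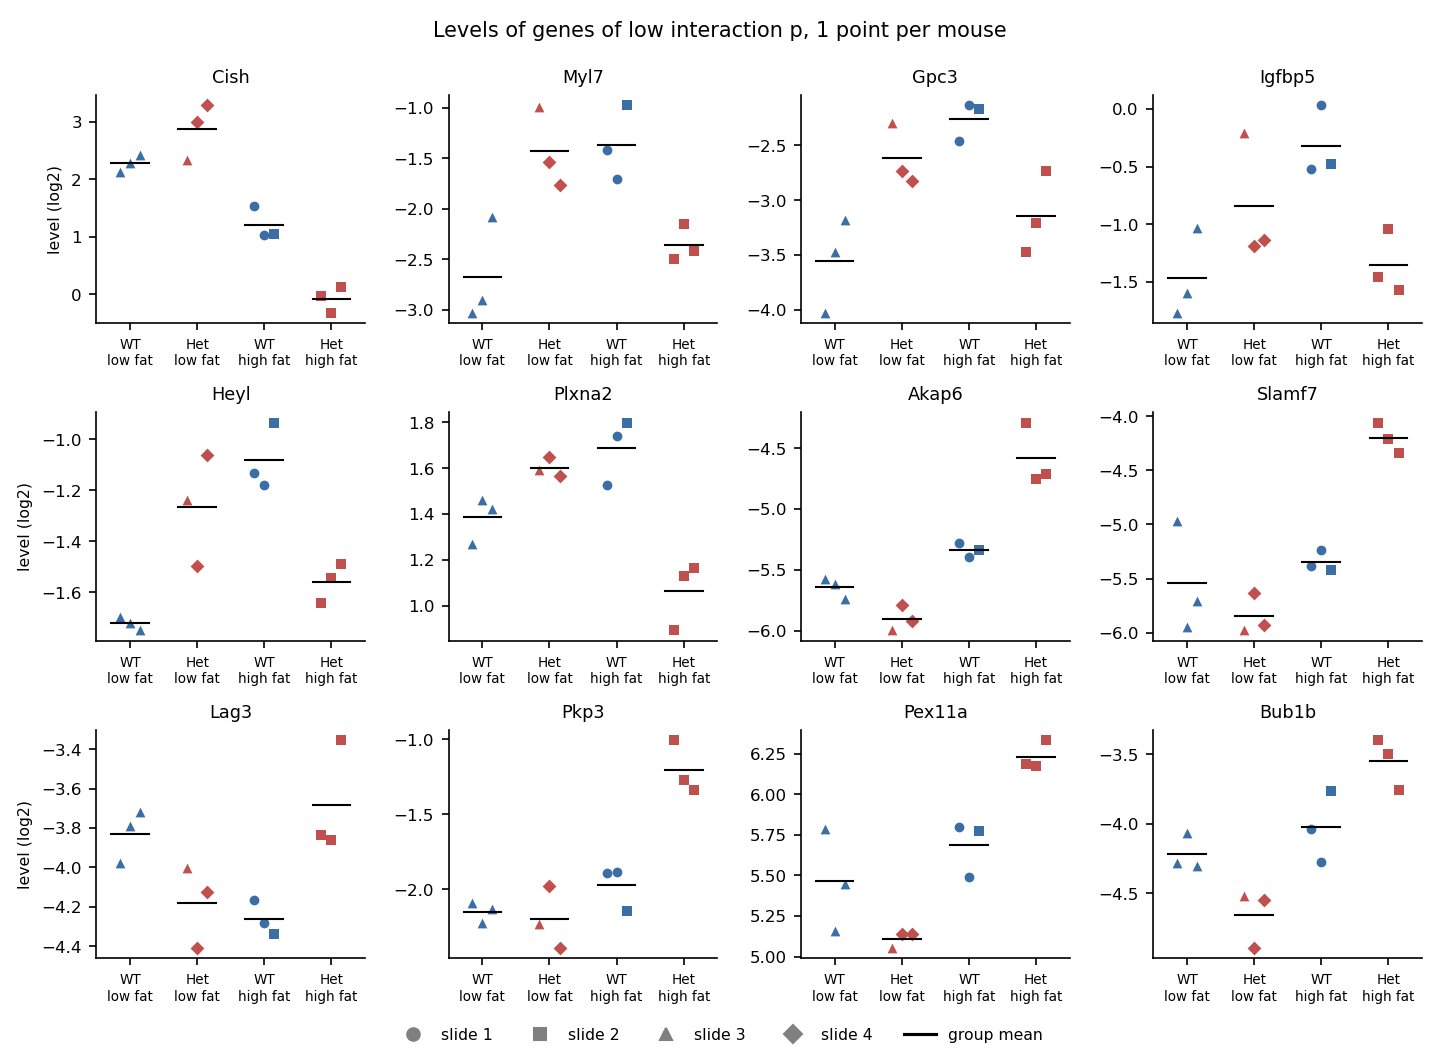
Levels of 12 genes of low unadjusted interaction p (vertical axes, log2 relative to the 75th percentile of the array, each panel on its own scale) in the 4 groups, 1 point per mouse, blue for WT and red for Het, with marker shapes for the 4 slides and a bar at the group mean. In the panels of Myl7, Gpc3, Heyl and Plxna2 the red points lie above the blue on the low-fat diet and below them on the high-fat diet, and in those of Akap6, Lag3, Pex11a and Bub1b the order is turned around.

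Of the 10 diet genes with the lowest interaction p, 8 are named above: Cish, Acpp, Taf7, Prph, Akap6, Slamf7, Tekt1 and Pkp3. The remaining ones are Pex11a and the transcript AK138477. Pex11a, a membrane protein of dividing peroxisomes that the fatty acid sensor PPARA induces, stood at 5.79, 5.16 and 5.45 in WT and 5.05, 5.14 and 5.14 in Het on the low-fat diet. After high-fat feeding it stood at 5.80, 5.49 and 5.77 in WT and 6.18, 6.17 and 6.33 in Het. It was crossed, and its diet difference was 0.22 in WT and 1.12 in Het, an interaction of 0.90 ± 0.22 (unadjusted p = 0.00209, adjusted p = 0.944, limma). AK138477 had a diet difference of -0.97 in WT and -2.48 in Het, an interaction of -1.51 ± 0.37. On the probe of highest mean, none of the 24 tested genes of fatty acid oxidation and ketogenesis had an unadjusted p under 0.05. Many of them are PPARA targets, and their median was 0.06. Another probe of Cpt1a, of that list, gave 0.45 ± 0.20 (unadjusted p = 0.0447, limma).

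Across 52 lists of pathway and cell type genes, 872 distinct genes were tested. Of these, 0 had an adjusted p under 0.05 in limma and 31 (3.56%) an unadjusted p under 0.05, against 4.86% of all genes, 19 with a positive and 12 with a negative interaction. Of the 31, 13 kept an unadjusted p under 0.05 in each of the 12 fits without 1 array. The 31 were chosen by a low p on the same arrays, which itself favours this. The matching share among all 828 genes at that level was not computed, so the 13 are no result about the lists. In 30 lists no member reached that level, in 14 lists 1 member did, and in 8 lists 2 or more did. Lists of at least 10 tested genes had medians from -0.30 to 0.68. The sign of the median held under every alternative processing for 12 of the 52 lists.

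T and NK cell genes had the highest median of the lists of at least 10 genes, 0.68, with 4 of 14 genes at an unadjusted p under 0.05, all positive, and 12 of 14 above 0. Over all genes 4.86% reached that level, 3.17% with a positive interaction, and 54.4% lay above 0. Nkg7, a granule protein of cytotoxic lymphocytes, stood at -1.41, -1.86 and -1.83 in WT and -2.70, -1.97 and -2.12 in Het on the low-fat diet. After high-fat feeding it stood at -2.13, -1.85 and -2.19 in WT and -0.99, -1.81 and -1.68 in Het. It was crossed, with an interaction of 1.13 ± 0.35 (unadjusted p = 0.00859) and 1.0 ± 0.41 on its other probe. The CD3 chains Cd3g and Cd3d of the T cell receptor complex gave 1.15 ± 0.46 and 1.30 ± 0.53, and Gzmb, the granule protease granzyme B, gave 1.05 ± 0.46. The lowest member, named for that value, was Cd3e, another chain of the same complex, at -0.26, so the CD3 chains did not all lie on 1 side. Ncr1 and Trac were not analysed here.

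The size of the T and NK cell difference moved with single mice. Their median level relative to the WT low-fat mean was 0.41, -0.08 and -0.22 in the WT and -0.93, -0.19 and -0.27 in the Het low-fat mice. It was -0.36, -0.24 and -0.65 in the WT and -0.13, -0.26 and -0.41 in the Het high-fat mice. The genotypes overlapped on the high-fat diet, and in the low-fat groups WT mouse 1 was highest and Het mouse 1 lowest. The median interaction was 0.45 without WT low-fat mouse 1, 0.43 without Het low-fat mouse 1, 0.46 without WT high-fat mouse 3, 0.38 after normexp correction and 1.31 with slide as a fixed block. In bulk tissue fewer cells of a type and less RNA per cell cannot be told apart. Of the other cell type lists, B and plasma cell genes had a median of 0.41 (0 of 7 at an unadjusted p under 0.05) that turned to -0.21 without WT low-fat mouse 1. Neutrophil genes had -0.50 (0 of 7), which turned to 0.42 without WT high-fat mouse 2 and to 0.98 with slide as a fixed block.

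The other cell type lists held few unadjusted p-values under 0.05, a level that 4.86% of all genes reached. Macrophage and Kupffer cell genes had a median of -0.14 (0 of 16), stellate cell genes -0.15 (0 of 10) and hepatocyte genes 0.13 (0 of 11). Endothelial genes had a median of 0.02, with 1 of 12 at an unadjusted p under 0.05, the clotting protein Vwf at 0.83 ± 0.35, with 0.45 ± 0.29 on its other probe. Cholangiocyte genes had 0.37 (0 of 9), or -0.12 without Het high-fat mouse 1. Of 4 tested skeletal muscle genes 1 did, the actin gene Acta1 at 1.44 ± 0.50, well above background in 0 of 3 Het low-fat mice. Adipocyte, red blood cell and pancreatic acinar lists had 4 tested genes each, none at that level, with medians of 0.17, -0.01 and 0.13.

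**Figure D4:**
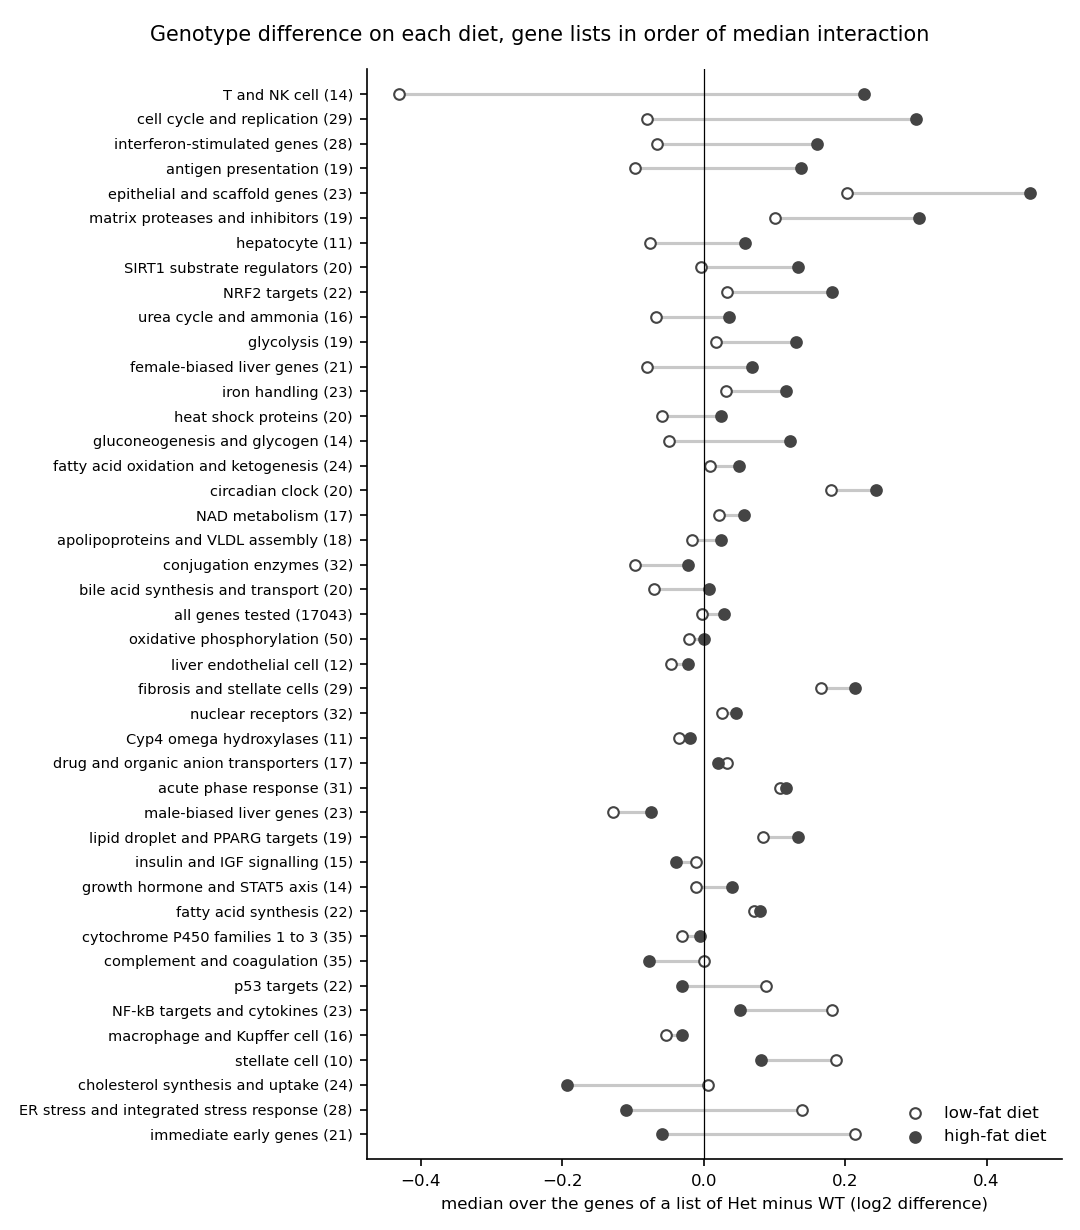
Median over the genes of a list of the Het minus WT difference (horizontal axis, log2) on the low-fat diet (open circles) and the high-fat diet (filled circles), for lists of at least 10 tested genes and for all genes, with the number of tested genes in brackets and lists in order of their median interaction. Most lists lie near 0 on both diets, and the widest gap is that of T and NK cell genes, at -0.43 and 0.23.

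Cell cycle and replication genes had a median of 0.41, with 26 of 29 above 0 and 3 at an unadjusted p under 0.05, all positive, beside 54.4% and 4.86% of all genes. Bub1b, a kinase of the spindle checkpoint, stood at -4.28, -4.07 and -4.30 in WT and -4.52, -4.89 and -4.55 in Het on the low-fat diet, and at -4.04, -4.28 and -3.77 in WT and -3.40, -3.50 and -3.76 in Het on the high-fat diet. The genotypes did not overlap on either diet, though on the high-fat diet only just. Its interaction was 0.91 ± 0.23 (unadjusted p = 0.00266, adjusted p = 0.944). Cdk1, the kinase that drives entry into mitosis, gave 1.07 ± 0.43, Rrm1, the large subunit of ribonucleotide reductase, 0.32 ± 0.14, and Mcm5, of the replicative helicase, 0.61 ± 0.37.

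The list's median level relative to the WT low-fat mean was 0.17, -0.35 and 0.13 in WT and 0.06, -0.04 and -0.25 in Het on the low-fat diet. On the high-fat diet it was 0.51, 0.22 and 0.72 in WT and 1.18, 0.51 and 1.0 in Het. Both genotypes were thus higher on the high-fat diet, with a median diet difference of 0.54 in WT and 1.04 in Het, and the genotypes overlapped on both diets. The median interaction ranged from 0.26 to 0.62 when any 1 array was left out: 0.26 without WT high-fat mouse 2 or without Het low-fat mouse 3, 0.27 without WT low-fat mouse 1, and 0.62 without WT low-fat mouse 2. It was -0.08 with slide as a fixed block, where only slides 2 and 3 enter, and in that fit Bub1b gave 0.52 and Cdk1 0.15.

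The promoters of Bub1b and Cdk1 are shown because genes of mitosis are known to carry the letters TTTGAA near CCAAT. They are from RefSeq (GRCm38.p6, Bub1b chr2:118597961-118598260 on the plus strand, Cdk1 chr10:69352863-69353162 on the minus strand, each 300 bases that end 50 after the start, read 5′ to 3′ along the gene). Capitals mark TTTGAA, and CCAAT on the opposite strand, where it reads ATTGG.
Bub1b promoter: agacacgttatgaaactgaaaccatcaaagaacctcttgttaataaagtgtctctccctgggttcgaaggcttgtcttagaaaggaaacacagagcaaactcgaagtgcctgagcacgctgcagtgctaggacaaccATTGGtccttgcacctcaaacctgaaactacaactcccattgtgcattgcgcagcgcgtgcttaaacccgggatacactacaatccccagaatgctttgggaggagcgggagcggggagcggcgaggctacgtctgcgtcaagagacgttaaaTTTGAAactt
Cdk1 promoter: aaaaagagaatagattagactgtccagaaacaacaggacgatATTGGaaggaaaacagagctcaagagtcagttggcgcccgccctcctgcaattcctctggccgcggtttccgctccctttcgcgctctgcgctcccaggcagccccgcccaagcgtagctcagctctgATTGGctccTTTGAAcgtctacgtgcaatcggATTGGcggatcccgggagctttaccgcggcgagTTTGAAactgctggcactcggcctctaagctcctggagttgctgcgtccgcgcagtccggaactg
Bub1b held 1 match to TTTGAA and 1 to CCAAT, and Cdk1 held 2 and 3, searched on both strands, and no matches of the 2 motifs overlapped. In Bub1b the 2 matches were not close: TTTGAA lay at bases 41 to 46 after the start and CCAAT at -113 to -109. The nearest pair in Cdk1 was CCAAT at -80 to -76 and TTTGAA at -71 to -66. A promoter was listed for 23 cell cycle genes, and 10 of them held TTTGAA, against 5466 of 27025 promoters (20.2%), and 19 held CCAAT, against 11096 (41.1%). Both motifs are short, and neither a match nor its absence says anything about the factor that binds it.

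**Figure D5:**
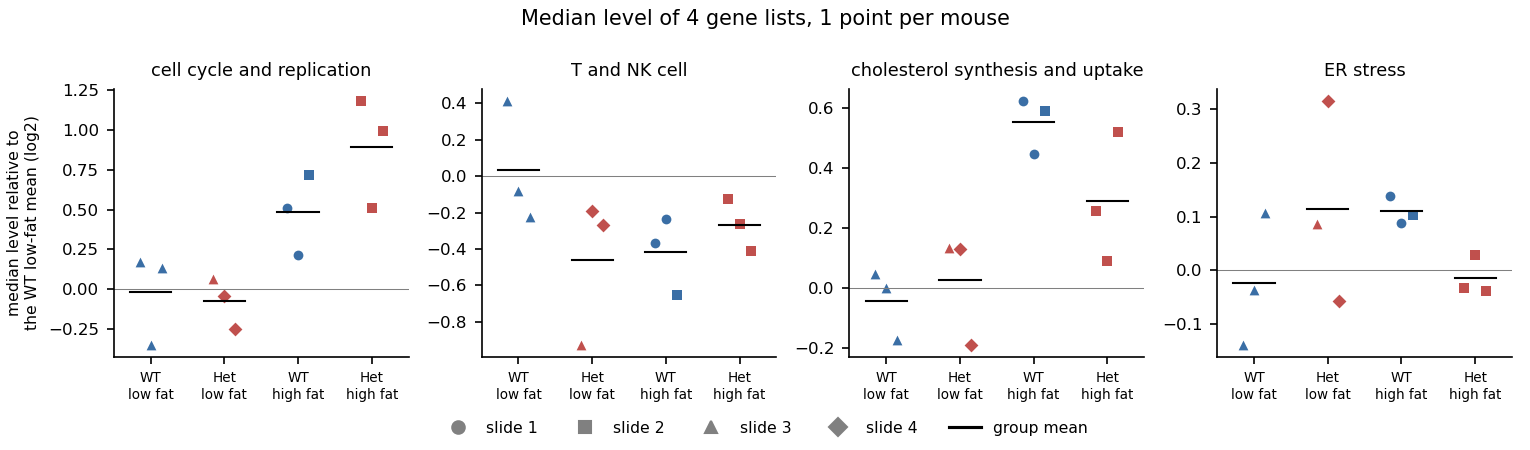
Median level of the genes of 4 lists relative to the WT low-fat mean (vertical axes, log2, each panel on its own scale), 1 point per mouse, blue for WT and red for Het, with marker shapes for the 4 slides and a bar at the group mean. Cell cycle genes are highest in Het high-fat mice but overlap with WT, and cholesterol genes are higher in 2 of 3 WT high-fat mice than in any Het high-fat mouse.

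Genes of cholesterol synthesis and uptake had a median of -0.22, with 3 of 24 above 0 and none at an unadjusted p under 0.05 in limma. Over all genes 54.4% lay above 0 and 4.86% reached that level. Their median level on the high-fat diet was 0.62, 0.45 and 0.59 in WT and 0.26, 0.09 and 0.52 in Het, so 1 Het mouse lay within the WT range. Their median diet difference was 0.58 in WT and 0.32 in Het. Cyp51, a demethylase of the pathway, gave -0.66 ± 0.32 (unadjusted p = 0.0663), the farnesyl diphosphate synthase gene Fdps -0.34 ± 0.25, the cyclase gene Lss -0.40 ± 0.31 and the desaturase gene Sc5d -0.22 ± 0.18. The median lay between -0.39 (slide as a fixed block) and -0.13 (without WT low-fat mouse 3) over the alternatives run, and it was -0.14 without Het low-fat mouse 1.

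Genes of the ER stress and integrated stress response had a median of -0.26, with 2 of 28 at an unadjusted p under 0.05, both negative, and 9 above 0. Over all genes 4.86% reached that level, 1.68% with a negative interaction, and 54.4% lay above 0. Hyou1, a chaperone of the ER lumen, stood at 3.74, 3.94 and 4.56 in WT and 4.49, 5.04 and 4.34 in Het on the low-fat diet. On the high-fat diet it stood at 4.27, 4.63 and 4.69 in WT and 4.17, 4.21 and 3.91 in Het, an interaction of -0.98 ± 0.34 (unadjusted p = 0.0147, adjusted p = 0.988). The genotypes overlapped on the low-fat diet and were apart on the high-fat diet. Chac1, which degrades glutathione and is induced by ATF4, gave -0.97 ± 0.38 (unadjusted p = 0.0276), and the chaperones Pdia4 and Hsp90b1 gave -0.55 ± 0.28 and -0.30 ± 0.19, with -0.06 ± 0.19 on the other Hsp90b1 probe. The list's median was -0.07 when the probes of a gene were averaged, -0.12 with slide as a fixed block and -0.11 without Het low-fat mouse 2.

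Over all genes 54.4% lay above 0 and 4.86% had an unadjusted p under 0.05. Immediate early genes had a median of -0.30, with 5 of 21 above 0. The only member at an unadjusted p under 0.05 went the other way: Fosl1, a partner of JUN, at 1.67 ± 0.55, and every Het high-fat array but not every array of another group read it well above background. The growth regulator Myc gave -1.11 ± 0.54 and Egr1 gave -1.30 ± 0.74, with Egr1 at 2.14, 2.41 and 0.12 in the Het low-fat mice. Interferon-stimulated genes had a median of 0.25 and 23 of 28 above 0, with none at an unadjusted p under 0.05. Oasl1 gave 0.56 ± 0.30 and Stat2 0.44 ± 0.27. Antigen presentation genes had a median of 0.17, or 0.05 with arrays scaled to their median, and 1 of 19 at that level, Ciita, the master activator of MHC class II, at 1.18 ± 0.44.

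Several lists held a single member at an unadjusted p under 0.05, a level that 4.86% of all genes reached, and none of these members passed the adjusted threshold. Hamp, the gene of hepcidin, a hormone that limits iron uptake, had a diet difference of -3.97 in WT and -1.68 in Het. Its high-fat levels were 4.86, 1.66 and 2.56 in WT and 4.05, 5.05 and 4.91 in Het, which overlap, and its interaction was 2.28 ± 0.91 (unadjusted p = 0.0288), the only one of 23 iron genes under 0.05. Phlda3, a p53 target, stood apart on the low-fat diet, with 0.24, 0.00 and 0.38 in WT and 1.10, 1.04 and 0.91 in Het on the low-fat diet, and an interaction of -0.84 ± 0.26 (unadjusted p = 0.00816).

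Il6, the cytokine, gave -1.79 ± 0.57 (unadjusted p = 0.00919), was well above background in 0 of 3 Het high-fat mice, and gave -0.17 with slide as a fixed block. The NRF2 target Akr1b8 gave 0.54 ± 0.16 and Keap1, the inhibitor of NRF2, 0.48 ± 0.18. These were the 2 members of that list of 22 at an unadjusted p under 0.05, a level that 4.86% of all genes reached. The list's median of 0.11 turned to -0.01 with arrays scaled to their median. Bst1, an enzyme that consumes NAD, gave -1.07 ± 0.41, the bile acid reductase Akr1d1 -0.66 ± 0.28, the receptor gene Igf1r 0.51 ± 0.21 (0.39 ± 0.25 on its other probe) and the lipase inhibitor Angptl4 0.47 ± 0.19. The matrix protease inhibitors Timp3 and Timp4 gave 0.71 ± 0.27 and 1.13 ± 0.42, and Timp4 was well above background in 3 of 3 mice only in the Het high-fat group, where it is highest. Each of these had an unadjusted p under 0.05 and none an adjusted one in limma.

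On the probe of highest mean, most metabolic lists held no member at an unadjusted p under 0.05, against 4.86% of all genes. Other probes did reach that level in some of these lists. Mlxipl, of the fatty acid synthesis list, gave -0.85 ± 0.22 on another probe (unadjusted p = 0.00244, limma). Other probes of Cpt1a, of fatty acid oxidation, and Glul, of the urea cycle list, gave 0.45 ± 0.20 and 0.55 ± 0.21 (unadjusted p = 0.0447 and 0.024). Medians were 0.00 for 19 lipid droplet and PPARG target genes, -0.02 for 22 fatty acid synthesis genes, 0.02 for 29 fibrosis genes and 0.01 for 31 acute phase genes. They were 0.03 for 50 oxidative phosphorylation genes, 0.06 for 14 gluconeogenesis and glycogen genes, -0.05 for 35 cytochrome P450 genes and 0.04 for 32 conjugation enzymes. Regulators that SIRT1 is known to deacetylate or to work with had a median of 0.13 over 20 genes, with Ncor1, a corepressor, lowest in p at 0.35 ± 0.17. The 6 other Ncor1 probes lay between -0.03 and 1.52, 1 of them at 1.07 ± 0.33 (unadjusted p = 0.00771). Of 7 sirtuins 6 were tested, with a median of -0.12, and Sirt7 had the lowest p at -0.30 ± 0.21. For oxidative phosphorylation the members lay between -0.31 and 0.38, and for fatty acid oxidation between -0.48 and 0.39.

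The other lists without such a member were circadian clock genes (median 0.05), heat shock proteins (0.06), urea cycle genes (0.08), Cyp4 hydroxylases (0.02), drug and anion transporters (0.02), major urinary proteins (0.03 over 4 genes, on the probe of highest mean) and epithelial and scaffold genes (0.16). Of the major urinary proteins, which are near-identical, Mup3 gave 0.24 ± 0.34 on that probe and -1.53 ± 0.63 on another (unadjusted p = 0.0329). On the latter it stood at 2.57, 2.74 and 2.21 in WT and at -0.26, 0.64 and 1.41 in Het on the high-fat diet, with no overlap, and between 4.02 and 5.41 in all low-fat mice. The medians of the lists with 1 or 2 such members were 0.04 for NAD metabolism, 0.03 for bile acid genes, 0.08 for glycolysis and 0.04 for apolipoproteins. Insulin signalling genes and nuclear receptors stood near 0 as well, the latter at 0.02. They were 0.07 for iron handling, -0.11 for complement and coagulation, -0.13 for NF-kB targets and cytokines, 0.14 for matrix proteases and -0.12 for p53 targets.

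Probes with a run of 8 or more alternating G and T bases were kept apart, since repeats of this kind are not specific to a gene. Of the 6 genes of lowest p with such a probe, 2 had an unadjusted p under 0.05: Olfr799, an odorant receptor gene, at -1.07 ± 0.39, and Cdh2, the cadherin of hepatocyte junctions, at -0.58 ± 0.22. Olfr799 was well above background in 1 of 3 Het high-fat mice, and AK036268 in the WT low-fat mice alone. AK036268, Gpat2, Klk1b8 and Fras1 gave 1.39 ± 0.69, -0.51 ± 0.27, -0.62 ± 0.34 and -0.68 ± 0.38.

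Single mice decided the only calls that arose when an array was left out, in genes singled out after their values were seen. Without WT high-fat mouse 3, 3 genes passed. H1f1, a linker histone, stood at -0.02 and -0.40 in WT high-fat mice 1 and 2 and at -4.07 in mouse 3, and between -4.34 and -3.43 in the other 3 groups. Lrrc66 stood at -0.58 and -0.78 in the same 2 mice and at -4.52 in mouse 3, and LOC545547 at -1.03 and -1.66 against -4.84. The 2 high mice are those that shared slide 1, so slide and mouse cannot be told apart. The interaction of H1f1 was -3.70 ± 0.38 without mouse 3 (adjusted p = 0.0113, limma), -2.41 with it, and 0.47 with slide as a fixed block. Without Het low-fat mouse 1, 1 gene passed: Clca4b stood at -2.63 in that mouse and at -7.45 and -7.75 in the other Het low-fat mice, while the WT low-fat mice lay at -4.93, -4.99 and -4.92. It was well above background in 3 of 3 WT low-fat, 1 of 3 Het low-fat and 0 of 6 high-fat mice, so its fitted interaction and the call rest on signals below that level in every high-fat mouse. Its interaction was 3.56 ± 0.21 without that mouse (adjusted p = 0.000192, limma) and 1.90 ± 1.44 with it.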

How the data were processed

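Total RNA from 12 livers was labelled with Cy3 and hybridised to 1-colour Agilent arrays of 60-base probes, per the labels. Agilent Feature Extraction 9.5 (submitters' processing notes) made the deposited files, which hold for each spot its intensity: the processed intensity, after background subtraction, and the raw mean and background intensity, per the file headers. The 0 or 1 marks of outlying spots, and of signals that clear the background, are the scanner software's own in the deposited files. The deposited table of the whole series held the same processed intensity values on all 12 arrays, and the headers record no step that scales arrays to each other.

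The processed intensity was taken as log2 minus the array's log2 75th percentile over non-control spots. Outlier spots (1344 over all arrays) were left out, spots of a probe were averaged, and a probe was kept if every array of some group marked it well above background (25297 of 41174). The probe of highest mean stood for a gene, 17043 in all. Names came from RefSeq accessions (22951 probes), current symbols (6659) or older symbols (3109), and 8455 probes kept the array design's name. limma 3.58.1 in R 4.3.3 was fitted to the 4 group means, with moderated two-sided tests, 8 residual and 2.80 prior degrees of freedom and Benjamini-Hochberg adjustment over all genes at 0.05. Intervals are 95%. The fit was tested on simulated data with 200 changed genes, where 6 to 9 of 16843 unchanged genes were called.

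Named genes are every Sirt1 probe, the 12 of lowest p in each direction with a current symbol and no run of 8 or more alternating G and T bases, up to 4 members of lowest p per list, the 10 diet genes and the 6 genes with such a run of lowest p. Some genes the rule takes are not reported here. Lists were described by counts and medians, with no set test. The comparison, members and lists were chosen with earlier results of these data known. The replicate numbers of the titles did not pair the mice: over 18 same-numbered pairs, deviations from group means correlated between -0.464 and 0.454, above 0.1 in 3. Alternatives were background correction, scaling, probe rules and filters, variance trend, slide and replicate blocks, each array left out and, added after the data were seen, array brightness as a covariate.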

Additional observations from a re-analysis of the deposited data

How the results depend on the processing

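The count of 0 genes past the adjusted threshold held under 24 of 26 alternatives, and when single arrays were left out it ran from 0 to 3. The 828 genes at an unadjusted p under 0.05 became 1343 with every probe tested on its own, 1414 with slide as a random block (slide correlation -0.177) and 1274 with array brightness as a covariate. With single arrays left out the 828 ran from 555 (without WT high-fat mouse 2) to 1134 (without Het high-fat mouse 3). The 5140 diet genes became 8713 with slide as a random block, and slide as a fixed block could not be fitted for them. With the replicate number as a block, 745 genes had an unadjusted p under 0.05 and 0 were called, and 3 of 12 arrays correlated best with an array of their own number.

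Of 2161 combinations of 84 genes and an alternative, 13 turned the sign and 4 passed the threshold. Sirt1, at -0.01, was 0.012 after normexp correction, 0.0086 after quantile normalization and 0.025 with slide as a random block, and ran from -0.11 to 0.080 with single arrays left out. With slide as a fixed block Lrrc66 turned from -2.28 to 0.37, H1f1 from -2.41 to 0.47, LOC545547 from -1.92 to 0.40 and Clca4b from 1.90 to -1.41. Slides that held a single group do not enter the interaction in that fit. The high WT high-fat mice of Lrrc66, H1f1 and LOC545547 lay on such a slide, as did the low Het low-fat mice of Clca4b. These turns in sign therefore follow from leaving those mice out. Whether slide or mouse set their levels was not tested, nor were the causes of the Sirt1 sign changes. All 24 genes of lowest p kept an unadjusted p under 0.05 in each of 12 fits without 1 array. They were chosen by low p on the same arrays, which itself favours this, so it is no separate test of them. The same holds for the sign counts above where genes were named for a low p. Signal near background limits 9 of these, since 15 were well above background on all arrays.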
